A study of Mus musculus with 2 samples.

Results

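Transcripts of 10 genes for matricellular proteins were compared between mitral valves of wild-type mice and of mice heterozygous for the C1039G allele of Fbn1. The members were taken by gene symbol from the deposited table, and all 10 were found among its 33640 genes. They were Postn (periostin), Tgfbi, Tnc (tenascin-C), the thrombospondin genes Thbs1, Thbs2 and Thbs4, and the SPARC family genes Sparc, Sparcl1, Smoc1 and Smoc2. The wild-type group and the Fbn1C1039G/+ group were both 5 months old, and no drug or other treatment is named for either. For each genotype the mitral valves of 8 mice, male and female together, were pooled into 1 RNA sample and 1 library. Fbn1 is the gene of fibrillin-1, from which the microfibrils of elastic tissue are built. The missense allele is carried in the germline, so every cell type of the valve has it, and it is used as a mouse model of Marfan syndrome. With 1 library per genotype nothing was replicated, so no test was run, no value carries an error, and each difference is one between these 2 libraries. Values were TPM, a transcript abundance corrected for the length of the transcript and the size of the library. TPM does not retain the sequencing depth, so the depth behind each value is unknown.

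Matricellular proteins are secreted into the extracellular matrix but are not themselves its load-bearing fibres. They bind collagens, growth factors and cell-surface receptors, mainly integrins, and so tune how cells adhere, how collagen fibrils assemble and how much active TGF-beta or BMP reaches a cell. They are typically abundant in developing and injured tissue. In heart valves periostin is made by fibroblast-like valve interstitial cells and is needed for the maturation of the leaflets.

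Promoter sequence is shown for the members with the largest differences that had an entry in the RefSeq promoter table (build GRCm38.p6, the assembly called mm10), which held 6 of the 10. Each run reads 5′ to 3′ on the strand of the gene. The Postn, Tnc and Thbs2 runs end at the base before the RefSeq start, and the Tgfbi run ends earlier, at the base before its GENCODE start (56609523), which lies upstream of its RefSeq start (56609586). Capitals mark matches, on either strand, to CAGAC, an element of the SMAD factors that carry TGF-beta signals. They also mark matches to TATAAA, the core of many promoters that bind the general transcription machinery. A match on the other strand shows as the reverse complement. The Postn run is chr3:54360857-54361106 on the plus strand, the Tgfbi run is chr13:56609336-56609522 on the plus strand, the Tnc run is chr4:64047016-64047265 on the minus strand, and the Thbs2 run is chr17:14694263-14694512 on the minus strand.
Postn: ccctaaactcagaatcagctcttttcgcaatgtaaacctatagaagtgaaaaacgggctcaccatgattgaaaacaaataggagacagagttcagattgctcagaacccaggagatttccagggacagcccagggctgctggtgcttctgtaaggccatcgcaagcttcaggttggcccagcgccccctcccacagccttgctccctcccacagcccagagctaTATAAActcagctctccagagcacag
Tgfbi: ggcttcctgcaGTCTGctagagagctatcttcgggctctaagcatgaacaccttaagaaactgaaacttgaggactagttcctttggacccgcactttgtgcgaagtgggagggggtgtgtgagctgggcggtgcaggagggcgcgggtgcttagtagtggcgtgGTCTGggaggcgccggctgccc
Tnc: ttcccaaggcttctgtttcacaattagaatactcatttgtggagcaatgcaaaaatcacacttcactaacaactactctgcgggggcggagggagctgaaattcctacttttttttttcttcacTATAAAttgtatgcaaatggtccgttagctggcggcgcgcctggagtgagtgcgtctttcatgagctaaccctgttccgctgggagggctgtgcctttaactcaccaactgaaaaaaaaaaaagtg
Thbs2: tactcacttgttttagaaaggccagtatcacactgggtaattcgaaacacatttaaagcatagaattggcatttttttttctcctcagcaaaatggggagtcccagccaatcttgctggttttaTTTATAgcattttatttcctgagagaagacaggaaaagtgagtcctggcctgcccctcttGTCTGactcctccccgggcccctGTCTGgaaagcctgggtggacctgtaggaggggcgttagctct

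The full windows, 300 bases from 250 before to 50 after the RefSeq start, were searched on both strands, and distances are counted from the RefSeq start. In Postn the match to TATAAA begins 26 bases before the start, the usual place of this element, and the window had no CAGAC. A second Postn window, at an upstream RefSeq start, had 1 CAGAC and no TATAAA. Tgfbi had 2 matches to CAGAC, beginning 239 and 85 bases before its start. Thbs2 had 2, beginning 66 and 43 bases before its start, and the Tnc window shown had 1, after its start. Tnc and Thbs2 also had a TATAAA match each, which in both genes begins 126 bases before the start. Thbs4, which is not shown, had 2 matches to CAGAC and 2 to GGAATG, the element of TEAD factors, and Sparc had 2 to CAGAC. Of all 32817 windows in the table, 49.6% held CAGAC, 13.6% held TATAAA and 14.7% held GGAATG. The AP-1 element TGANTCA (in 7.81% of all windows) and the CArG box (in 1.63%) had no match in any of the 8 member windows. CANNTG, the E-box, had matches in the windows of Tnc, Sparc, Thbs4 and Thbs2 and is in 72.3% of all windows. These matches describe letters, and binding was not measured. CAGAC was held by members with more TPM in mutant valves and by Thbs2, the only member with less TPM that had a window. Thbs1, Sparcl1, Smoc1 and Smoc2 had no entry and were not searched.

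The members spanned a wide range of abundance. Sparc and Postn were the most abundant in both pools and made up 74.5% of the summed TPM of the 10 genes in wild-type valves and 79.3% in mutant valves. In wild-type valves the order from high to low was Sparc, Postn, Thbs1, Tgfbi, Sparcl1, Thbs2, Thbs4, Smoc1, Smoc2 and Tnc. In mutant valves Postn came before Sparc, Thbs4 before Sparcl1 and Thbs2, and Tnc before Smoc2. Without replicates it is not known which neighbours in these orders differ beyond the spread between pools. Smoc1 and Tnc, at 13.12 and 13.08 TPM in mutant valves, were level there. The summed TPM of the members was 3723 in wild-type valves and 5414 in mutant valves, 1.45 times as much. Of the gain of 1691 TPM, Postn alone gave 58.8%.

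**Figure D1:**
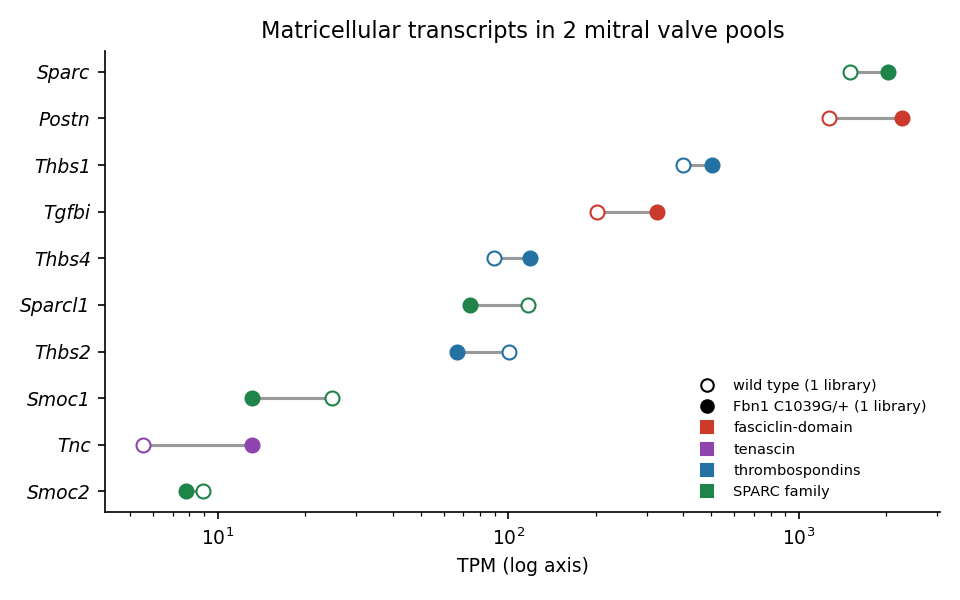
TPM (log axis) of the 10 matricellular genes, ordered by mean TPM, in wild-type valves (open circles) and the Fbn1C1039G/+ pool (filled circles), coloured by protein family, with 1 library per circle. Postn moves from 1269 to 2263 TPM and passes Sparc, while Sparcl1, Thbs2, Smoc1 and Smoc2 have their filled circle on the left.

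Differences are given as log2(TPM + 1) of mutant valves minus log2(TPM + 1) of wild-type valves, a scale that understates differences of low genes. On it 3 of the 10 members were at least 1.5-fold higher in mutant valves (Tnc, Postn and Tgfbi), where 15.4% of the 17004 genes averaging 1 TPM or more were. As many, 3 of 10, were at least 1.5-fold lower (Smoc1, Sparcl1 and Thbs2), where 4.73% of all genes were. At 2-fold, Tnc alone was higher and none was lower, against 4.81% and 1.72% of all genes. Of the 7 members averaging 50 TPM or more, 2 were 1.5-fold higher and 2 lower, and among the 3228 genes of that abundance 7.74% and 2.32% were. Positive differences were found for 6 of 10 members and for 64.9% of all genes. The median member difference was 0.37, and that of all genes was 0.14. Because 10 genes give shares in steps of 10%, and these genes were chosen with earlier results of the same libraries known, the shares are a description and were not tested.

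Most genes had slightly more TPM in mutant valves, with a median difference of 0.11 among genes averaging 10 TPM or more. Of all genes past 1.5-fold, 76.4% were higher. That share was 61.9% after centring on this median and 51.6% after quantile normalization. Centring lowers every member by 0.11, which leaves Postn at 0.72, Tnc at 0.996, Tgfbi at 0.57 (no longer past 1.5-fold), Sparc at 0.32, Thbs4 at 0.298 and Thbs1 at 0.22. The lower members then stand at −0.98 for Smoc1, −0.77 for Sparcl1, −0.701 for Thbs2 and −0.29 for Smoc2. The shift depended on abundance, with a median of 0.246 among genes averaging 1 to 5 TPM and −0.03 among those of 200 TPM or more. Postn, Sparc, Thbs1 and Tgfbi lie in the latter range, so centring lowers them by a shift that genes of their abundance did not show.

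**Figure D2:**
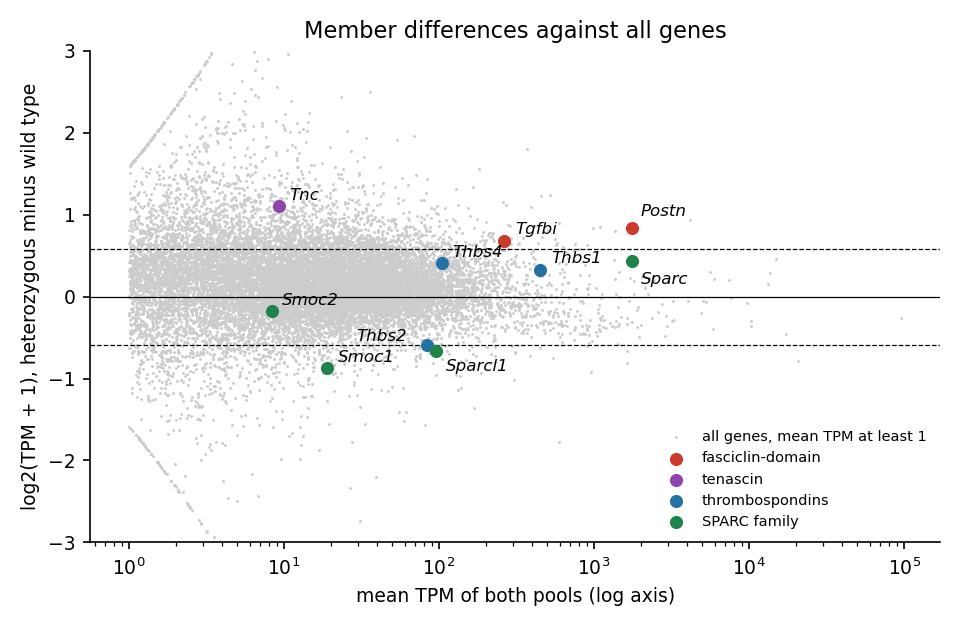
Difference in log2(TPM + 1), heterozygous minus wild type, against the mean TPM of both pools (log axis) for all genes averaging 1 TPM or more (grey) and the 10 members (coloured by family), with dashed lines at 1.5-fold and 58 genes beyond −3 or 3 not drawn. Postn lies at the upper edge of the abundant genes at 0.83, and Smoc1, Sparcl1 and Thbs2 lie at or under the lower dashed line.

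The fasciclin-domain proteins, periostin and the TGF-beta-induced protein of Tgfbi, share repeats that bind integrins and collagen, and both genes are known targets of TGF-beta. Postn (ENSMUSG00000027750.16, chromosome 3, 54361109 to 54391037, mm10, plus strand) was at 1269 TPM in wild-type valves and 2263 TPM in mutant valves. The mutant valves thus had 1.78 times the TPM, a difference of 0.83. The central 95% of the 557 genes averaging 200 TPM or more lay between −0.706 and 0.832, and Postn, at 0.834, was just above that range. It was the 69th most abundant gene of the wild-type library and the 33rd of the mutant library. Tgfbi (chromosome 13, 56609523 to 56639562, plus strand) was at 203 and 326 TPM, a ratio of 1.61 and a difference of 0.68. Both genes moved by nearly the same factor, so the ratio of Postn to Tgfbi was 6.26 in wild-type valves and 6.94 in mutant valves.

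Periostin promotes collagen fibril assembly, so its level was also set against the fibrillar collagen genes within each library, a ratio that no scaling between the libraries can change. There was 1.67 times as much Postn as Col3a1 in wild-type valves and 2.27 times as much in mutant valves. Relative to Col1a1 these ratios were 5.23 and 7.75, and relative to the proteoglycan gene Dcn 0.111 and 0.243. Postn thus had more TPM per unit of each of these fibroblast transcripts in the mutant library. Among the 193 genes averaging 500 TPM or more, the genes whose difference was at least that of Postn were Chek2 at 307 and 727 TPM, Gm17571 at 2850 and 5428, AC109138.6 at 413 and 771, and Olfr1033 at 777 and 1403. Set against the median of 10 fibroblast markers, the difference of Postn was 0.91, that of Tgfbi 0.76 and that of Sparc 0.504. The likeness to Chek2 and the other 3 genes rests on 1 difference between 2 libraries. Whether the reads counted for these genes came from them was not checked, so their TPM may not show their expression in the valve.

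Tnc encodes tenascin-C, a large hexameric glycoprotein that weakens adhesion to fibronectin and is typical of remodelling matrix and tendon. The gene (ENSMUSG00000028364.15, chromosome 4, 63959785 to 64047015, minus strand) was at 5.54 TPM in wild-type valves and 13.1 TPM in mutant valves. This was 2.36 times the TPM and a difference of 1.11, the largest of the members, at a low level. Tnc was under 2-fold with a pseudocount of 5 (0.78), after centring on all genes and after quantile normalization (0.94). The central 95% of genes averaging 5 to 50 TPM lay between −0.68 and 1.13, and Tnc was inside it. Against Fn1, which encodes fibronectin, the ratio was 0.0282 in wild-type valves and 0.0488 in mutant valves. Against Tnxb, the tenascin gene of loose connective tissue, it was 0.272 and 0.599. A non-coding gene on the opposite strand, 8030451A03Rik, shares 176 of the 7772 exon bases of Tnc. The labels do not say that strand was used, and reads within those shared bases could then not be told apart.

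Thrombospondins are multimeric calcium-binding glycoproteins. The trimers encoded by Thbs1 and Thbs2 bind the receptors CD36 and CD47 and restrain blood vessel growth. Thrombospondin-1 can in addition activate latent TGF-beta. Thrombospondin-4 is a pentamer found in tendon and heart that organises collagen. Their genes differed in opposite directions. Thbs1 (chromosome 2, 118111876 to 118127133, plus strand) was at 399 and 502 TPM, a ratio of 1.26 and a difference of 0.33. The lincRNA gene Gm29233, on the opposite strand, shares 208 of its 6073 exon bases. Thbs4 (chromosome 13, 92751590 to 92794818, minus strand) was at 89.1 and 119 TPM, a ratio of 1.33 and a difference of 0.41. Neither reached 1.5-fold.

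Thbs2 (ENSMUSG00000023885.9, chromosome 17, 14665500 to 14694235, minus strand) had less TPM in mutant valves, with 66.5 TPM there against 101 in wild-type valves. The wild-type valves had 1.51 times the TPM of mutant valves, a difference of −0.59 that is just past the limit of −0.585. It was no longer past that limit with a pseudocount of 5 (−0.56) or after centring on fibroblast markers (−0.52). Compared within each library, Thbs1 was 3.97 times Thbs2 in wild-type valves and 7.55 times in mutant valves. Thbs4 was 0.886 times Thbs2 in wild-type valves and 1.78 times in mutant valves, so their order turned. The summed TPM of the 3 genes was 589 in wild-type valves and 687 in mutant valves. The remaining genes of the family were Thbs3, at 48.8 and 66.3 TPM, and Comp, the cartilage thrombospondin, at 392 and 288 TPM. Thbs4 relative to Comp, both pentamers, went from 0.227 to 0.412.

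SPARC family proteins share a calcium-binding domain, and SPARC and its relative hevin (Sparcl1) also bind collagen. SPARC, also called osteonectin, is a collagen chaperone of matrix-making cells. Sparc (ENSMUSG00000018593.13, chromosome 11, 55394500 to 55423183, minus strand) was at 1506 and 2030 TPM, a ratio of 1.35 and a difference of 0.43. It moved nearly with Col3a1, since the ratio of Sparc to Col3a1 was 1.98 in wild-type valves and 2.04 in mutant valves. Col1a1 differed less than Col3a1 (0.27 against 0.39), and the ratio of Sparc to Col1a1 was 6.20 and 6.95.

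The other SPARC family members, Sparcl1, Smoc1 and Smoc2, had less TPM in mutant valves, Smoc2 by little. Sparcl1 (ENSMUSG00000029309.7, chromosome 5, 104079111 to 104113733, minus strand) was at 117 TPM in wild-type valves and 73.7 TPM in mutant valves, 1.59 times as much in the wild type and a difference of −0.66. The ratio of Sparc to Sparcl1 was 12.9 in wild-type valves and 27.5 in mutant valves, a 2.14-fold change within the family. An annotated antisense gene, Gm26703, overlaps the span of Sparcl1 but shares no exon base with it. The genes averaging 50 to 200 TPM had a central 95% from −0.52 to 0.80, and both Sparcl1 and Thbs2 lay below it.

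SMOC proteins are modular SPARC relatives, and SMOC1 antagonises BMP signalling. Smoc1 (ENSMUSG00000021136.13, chromosome 12, 81026808 to 81186414, plus strand) was at 24.8 TPM in wild-type valves and 13.1 TPM in mutant valves. The wild type had 1.89 times the TPM, a difference of −0.87 that lay outside the central 95% of genes of 5 to 50 TPM. Smoc2 (chromosome 17, 14279506 to 14404790, plus strand) was at 8.88 and 7.75 TPM, a difference of −0.17. Smoc1 was 2.80 times Smoc2 in wild-type valves and 1.69 times in mutant valves. Smoc2 and Thbs2 lie on the same chromosome with 260709 bases between them. The spans of Smoc1 and Smoc2 each hold another annotated gene, Mir3067 and the antisense 4930474M22Rik, neither of which shares an exon base with them.

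**Figure D3:**
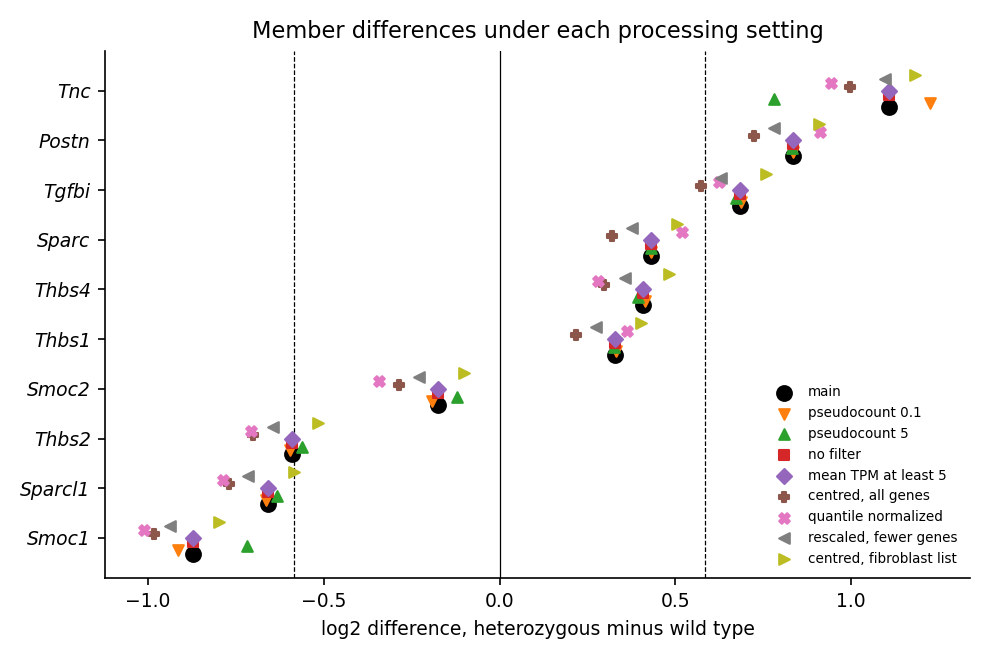
Difference between the pools for each member (heterozygous minus wild type, log2) under the main setting (black circles) and the 8 alternatives, offset vertically for legibility, with dashed lines at 1.5-fold. Each member stays on its own side of 0, which the filter and pseudocount settings could not change, and only Tgfbi and Thbs2 cross a dashed line.

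The genes around the members were described from fixed lists, with percentages of all genes as above. Measured genes are those averaging 1 TPM or more, and folds were counted on the log2(TPM + 1) scale. A gene near the limit or low in level can thus pass 1.5-fold in TPM without being counted. Other matricellular genes had 13 of 16 averaging 1 TPM or more, of which 2 were 1.5-fold higher, 1 was lower and the median difference was 0.24. The higher genes were low or moderate in level. Spp1, which encodes osteopontin, was at 26.1 and 44.4 TPM, and Wisp1, of the CCN family, at 1.95 and 3.75 TPM. Ctgf, a CCN family target of TGF-beta, was at 298 and 401 TPM, and the abundant Fstl1, a SPARC-related glycoprotein, at 585 and 690 TPM. Spock2, which encodes the SPARC-related proteoglycan testican-2, was the lower gene, at 15.4 and 9.52 TPM.

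Receptors for these proteins had 21 of 22 genes measured, with 2 at least 1.5-fold higher, none lower and a median of 0.16. The higher genes were Cacna2d1, the calcium channel subunit that binds thrombospondins, at 40.2 and 68.4 TPM, and Itga5, the fibronectin receptor subunit, at 28.7 and 45.4 TPM. The periostin-binding subunits were at 68.5 and 92.0 TPM for Itgav, 8.16 and 11.7 for Itgb3 and 54.0 and 61.8 for Itgb5. The thrombospondin receptor genes Cd36, at 80.8 and 70.1 TPM, and Cd47, at 146 and 158 TPM, differed by less than 1.5-fold. The most abundant genes of the list were the endocytic receptor gene Lrp1, at 235 and 238 TPM, and Calr (calreticulin), at 220 and 205 TPM.

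Matrix partners had 16 of 17 measured, with 1 higher, none lower and a median of 0.26. Vcan, which encodes the proteoglycan versican, was the higher gene, at 443 and 688 TPM, and Fn1 was at 196 and 268 TPM. The abundant Bgn, at 5396 and 5161 TPM, and Dcn, at 11409 and 9304 TPM, had less. Proteases that cleave matricellular proteins had 12 of 13 averaging 1 TPM or more, of which none was higher, 1 was lower and the median was 0.03. Mmp9, left out for its low mean, was at 0.274 and 1.63 TPM, a difference of 1.05. The serine protease gene Htra1 was the lower gene, at 53.0 and 32.5 TPM. Mmp3 (stromelysin), which cleaves SPARC and tenascin-C, was at 90.9 and 136 TPM, just under 1.5-fold on the log2(TPM + 1) scale. Mmp2 was at 338 and 374 TPM and Ctsb at 209 and 199 TPM.

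Of 18 genes for TGF-beta ligands, binders, receptors, SMADs and targets, all measured, 1 was higher, none lower and the median was 0.06. Smad7, the inhibitory SMAD, was the higher gene, at 17.7 and 27.0 TPM, which put it just past the limit with a difference of 0.59. The ligand gene Tgfb3 was at 79.4 and 58.8 TPM. Ltbp4 was at 408 and 398 TPM and the corepressor gene Ski at 130 and 137 TPM. BMP pathway genes, set beside Smoc1, had 13 of 15 measured, none past 1.5-fold in either direction and a median of 0.04. Bmp4 was at 137 and 135 TPM, Bmp7 at 5.42 and 7.02 TPM, and the BMP targets Id1 at 74.9 and 60.4 TPM and Id3 at 221 and 207 TPM.

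**Figure D4:**
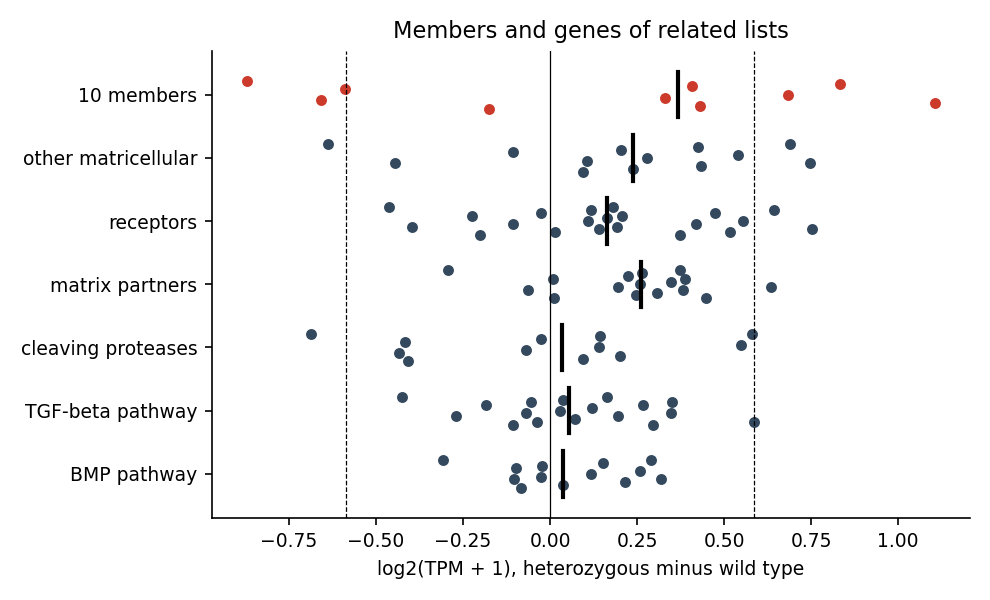
Difference in log2(TPM + 1), heterozygous minus wild type, for the 10 members (red) and for each gene with an average of 1 TPM or more in 6 related lists (dark blue), with a thick bar at each median, dashed lines at 1.5-fold and vertical spread for legibility only. The members lie in groups on both sides of 0, while most genes of the other lists lie between the dashed lines.

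Cell type markers were read beside these values, since in bulk tissue fewer cells of a type and less RNA per cell cannot be told apart. Markers of valve interstitial cells and fibroblasts were read first, though these cannot tell the mitral valve from other connective tissue. All 10 were present, among them Dcn, Lum at 1213 and 872 TPM, Vim at 2797 and 3167 TPM and Fbln1 at 383 and 239 TPM, with a summed TPM of 20466 and 18139 and a median difference of −0.07. Of these, 5 had more TPM in mutant valves, and Fbln1 alone was past 1.5-fold. Heart muscle transcripts were present too, at a summed 2659 and 1988 TPM over 9 genes, 2 of them at least 1.5-fold lower and 1 higher. Myl2, of ventricular muscle, had the largest fall, at 407 and 201 TPM. Of the 9, 2 had more TPM in mutant valves, namely Nppa at 117 and 179 TPM and Ttn at 78.5 and 81.3 TPM. Fbn1 itself was at 108 and 126 TPM, which does not check the genotype, since the allele replaces an amino acid.

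Blood and immune markers differed between the pools, and their part in the member differences was not tested. Neutrophil markers summed to 17.0 TPM in wild-type valves and 103 TPM in mutant valves, with 4 of 6 measured genes at least 1.5-fold higher and the defining marker Ly6g listed at 0 in both. All 5 monocyte markers had more TPM, 4 of them at least 1.5-fold, with a sum of 212 and 318 TPM, most of it from Fn1, which fibroblasts also make. The monocyte gene Plac8 was listed at 0 in wild-type valves. Macrophage markers, read beside Tgfbi, which macrophages also express, summed to 1918 and 2292 TPM, and none of 8 was past 1.5-fold. Red blood cell markers summed to 6801 and 687 TPM, 4 of 5 at least 1.5-fold lower, and T cell markers to 53.2 and 38.4 TPM, with 3 of 5 lower. The T cell list was split, since 2 of 5 had more TPM in mutant valves. Its most abundant gene, Cd3d, was at 19.7 and 26.9 TPM, while Cd3e was at 19.2 and 6.35 TPM. Platelets carry thrombospondin-1 and SPARC, and 9 platelet markers summed to 175 and 229 TPM. Of that, Pf4, which macrophages can also express, gave 153 and 213 TPM, while 5 of the 9 had a mean TPM below 1. Of the 4 averaging 1 TPM or more, 1 had more TPM in mutant valves, namely Pf4. Ppbp, a marker more restricted to platelets, was at 11.6 and 5.61 TPM, Itga2b at 5.41 and 5.38 TPM and Gp1ba at 2.58 and 2.33 TPM.

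Vascular and other stromal markers were read beside Sparcl1 and Thbs2, and their part in those differences was not tested. Endothelial markers summed to 609 and 624 TPM with a median of −0.14 and none of 8 past 1.5-fold on the log2(TPM + 1) scale. The 2 of 8 with more TPM in mutant valves were Pecam1, at 223 and 241 TPM, and Emcn, at 109 and 143 TPM. The other 6 had less, among them Kdr at 18.5 and 12.3 TPM, Tek at 117 and 95.5 TPM and the low Cldn5 at 2.16 and 1.11 TPM. In TPM alone, wild-type valves had 1.504 times as much Kdr and 1.95 times as much Cldn5. Lymphatic endothelial markers summed to 368 and 212 TPM, with 2 of 6 lower, namely Ccl21a at 244 and 94.3 TPM and Mmrn1 at 12.2 and 1.45 TPM. Most of the fall in that sum came from Ccl21a. Lyve1 had more TPM in mutant valves, at 44.7 and 58.8 TPM, and the remaining genes of the list had less but within 1.5-fold. Smooth muscle and myofibroblast markers summed to 175 and 191 TPM with none of 5 past 1.5-fold on the log2(TPM + 1) scale. Of these 5, 3 had more TPM in mutant valves. Acta2 was at 89.9 and 102 TPM and Tagln at 32.5 and 49.2 TPM, while Smtn was at 47.6 and 35.7 TPM. Mutant valves had 1.51 times the TPM of Tagln, which was just under the limit on the log2(TPM + 1) scale. Melanocyte markers summed to 129 and 66.6 TPM with 3 of 5 lower, Schwann cell markers to 61.3 and 47.1 TPM, adipocyte markers to 25.1 and 16.0 TPM, with Adipoq and Cidec listed at 0 in mutant valves, and mesothelial markers to 2.75 and 2.02 TPM.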

How the data were processed

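The authors deposited 1 table of TPM per gene symbol for 2 libraries, which sum to 999964 and 999945. Per the submitters' processing notes Trimmomatic, HISAT2, kallisto and mm10 were used. Not given in the sources used here are their roles, the annotation and how transcripts became genes. Per the labels' protocols RNA was amplified (Ovation RNAseq system), and no molecular identifiers are named, so TPM of low genes may rest on few molecules. TPM keeps no depth, so no interval or detection limit was computed.

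Columns were matched to libraries by genotype. The measure was log2(TPM + 1), heterozygous minus wild type, with counts at 1.5-fold and 2-fold over genes averaging 1 TPM or more, in Python 3.11.15 with pandas 2.3.3. The calculation was tested on simulated data. Members, lists and folds were chosen with earlier results of these data known. Named genes were the members, Fbn1, from each list the 2 most abundant and the 2 with the largest difference that averaged 5 TPM or more, and genes of at least 500 TPM that differed as much as Postn. Of the marker lists not every gene so taken is printed. Wisp1, Thbs3, Comp, Tnxb, Col1a1, Col3a1, Itgav, Itgb3, Itgb5, Cd36, Cd47, Mmp9, Nppa, Ttn, Itga2b, Gp1ba, Ly6g, Plac8, Scx, Tek, Cldn5, Matn3, Adipoq and Cidec were added after their values were seen. Coordinates are from GENCODE M21 (mm10) and promoters from RefSeq. Protein sequences were not used here. Of the TGF-beta pathway list, 1 item is not reported here and is left out of its counts. The 8 alternatives are given in the closing section.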

Additional observations from a re-analysis of the deposited data

How the results depend on the processing

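With 1 library per genotype no replicate could be left out. No paired analysis was possible because each genotype has 1 library and no result comes from a test. The 8 alternatives changed the pseudocount to 0.1 or to 5, dropped the filter or raised it to 5 TPM, centred the differences on all genes or on the fibroblast list, normalized by quantiles, or rescaled TPM after removing Gm, Rik, globin, mitochondrial and ribosomal protein genes. All 10 members kept their sign under each of the 8. The filter and pseudocount settings could not change a sign, so only centring, quantile normalization and rescaling bear on this. The difference of Postn ran from 0.72 to 0.91, that of Tnc from 0.78 to 1.23 and that of Smoc1 from −1.01 to −0.72, past 1.5-fold throughout. Sparcl1 ran from −0.79 to −0.59, where it was barely past 1.5-fold when centred on the fibroblast list. Tgfbi (0.57 to 0.76) missed 1.5-fold when centred on all genes, and Thbs2 missed it under 2 alternatives. The number of members at least 2-fold higher was 0, in place of 1, with a pseudocount of 5, after centring on all genes and after quantile normalization, and the number 2-fold lower was 1, in place of 0, after quantile normalization. The median member difference was 0.26 when centred on all genes. Over all genes, 15.4% were 1.5-fold higher and 4.73% lower, against 8.83% and 8.28% after quantile normalization and 6.89% and 2.11% with a pseudocount of 5. Depth is unknown, and Tnc and Smoc2 had the lowest TPM of the members.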

Other observations

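Tendon and cartilage-like markers, which share tissues with Thbs4, Comp and Tnc, had 4 of 8 genes averaging 1 TPM or more, of which 1 was at least 1.5-fold higher and 2 were lower. The tendon transcription factor genes differed in direction, since Mkx was at 48.9 TPM in wild-type valves and 112 TPM in mutant valves, and Scx at 20.9 and 12.7 TPM. Chad (chondroadherin, of cartilage) was at 919 and 268 TPM. The summed TPM of the list was 1052 and 452, with Matn3 listed at 0 in both pools. Immediate early genes, a group that responds within minutes to stress or handling and to which Thbs1 is often added, had 14 of 14 measured, with 1 at least 1.5-fold higher, 1 lower and a median difference of 0.18. Egr2 was at 12.4 and 27.3 TPM, Nr4a1 at 35.0 and 20.8 TPM, Egr1 at 132 and 158 TPM and Dusp1 at 158 and 174 TPM.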
